A study of Homo sapiens with 66 samples.

Results

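The 9 genes described here are transcription factors that mark spinal motor neurons and their columns: ISL1, ISL2, MNX1, LHX3, LHX4, FOXP1, FOXP2, PHOX2A and TBX20. They were chosen by name, for their known roles and with earlier results of these data known, and are 9 of the 60603 annotated genes in the tables. Their transcripts were measured by bulk RNA sequencing in H9, an established line of wild-type human embryonic stem cells, on its way to motor neurons. The course had 22 groups of 3 libraries. It began with undifferentiated cells in mTeSR1 medium (hESC) and went through groups labelled neuromesodermal progenitors on days 1 to 4 (hNMP-D1 to hNMP-D4). In the study's methods, plated cells first spent 1 day in mTeSR1. Dual-SMAD inhibitors, FGF2 and CHIR99021 came after that, up to day 4, so hNMP-D1 may not have received them. Neural determination followed on days 1 to 6 (NeuDet-D1 to NeuDet-D6), with FGF8 and Compound E added. Expanded spinal cord neural progenitors came from passage 5, 10, 20, 30 or 40 (named hSCNPC-P5 and so on), kept in Purmorphamine, SB431542 and CHIR99021. The last 6 groups were cells called motor neurons by the labels on days 6, 12, 18, 24, 30 and 42 (hMN-D6 to hMN-D42), in medium with Purmorphamine, Compound E, BDNF, GDNF and NT-3. All 66 libraries are of this 1 line, and none is marked as the start of motor neuron differentiation. The passage 10 progenitors therefore served as the reference for hMN-D6.

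In the ventral spinal cord, postmitotic motor neurons switch on the LIM homeodomain factors ISL1 and ISL2 and the homeodomain factor MNX1. LHX3 and LHX4 are LIM homeodomain factors of newborn motor neurons that later stay in the median motor column, and both are also made by V2a interneurons, where LHX3 acts without ISL1. In motor neurons, ISL1 and LHX3 join on the cofactor LDB1 to activate motor neuron genes. FOXP1 at a high level sets the columns of the limb and of the preganglionic neurons, and FOXP2 is a related forkhead factor found in several kinds of spinal neuron. PHOX2A belongs to visceral motor neurons and oculomotor neurons of the brainstem, and TBX20 to its branchial motor neurons and also to the heart.

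Promoter sequences of 3 members are shown first, since the windows around their starts are where their motor neuron regulators could be sought. All 9 members matched RefSeq, with 18 promoters in GRCh38.p14, each running from 250 bases before to 50 bases after a transcription start. The E-box CAGATG, whose other strand reads CATCTG, is a site type of proneural factors, and the core TAATTA, identical on both strands, is one of homeodomain factors. The E-box was found in 2 of the 18 promoters, both of FOXP2, against 14.7% of 35116 promoters of the same length. TAATTA was found in 0 of the 18, against 4.8% of the same promoters. A match describes the letters and not a bound site, and the lack of one says nothing about a factor. In the lines below, capitals mark the E-box, which starts 225 and 173 bases before the start in the FOXP2 promoters. The ISL1 and LHX4 promoters are shown because these genes reached the highest levels per exon length, and they hold neither motif.
ISL1 promoter (chr5:51383198-51383497, + strand): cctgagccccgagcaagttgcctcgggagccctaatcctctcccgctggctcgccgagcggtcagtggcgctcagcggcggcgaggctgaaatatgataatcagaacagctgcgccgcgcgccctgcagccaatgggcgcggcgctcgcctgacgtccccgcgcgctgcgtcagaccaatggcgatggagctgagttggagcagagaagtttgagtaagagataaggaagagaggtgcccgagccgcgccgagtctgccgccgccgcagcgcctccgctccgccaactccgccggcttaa
LHX4 promoter (chr1:180230014-180230313, + strand): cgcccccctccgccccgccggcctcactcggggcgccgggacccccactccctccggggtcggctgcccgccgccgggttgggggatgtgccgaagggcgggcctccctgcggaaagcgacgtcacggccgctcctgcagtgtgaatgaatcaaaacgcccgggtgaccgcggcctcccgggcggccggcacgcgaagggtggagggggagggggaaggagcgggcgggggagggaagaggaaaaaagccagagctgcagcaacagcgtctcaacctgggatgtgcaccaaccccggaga
FOXP2 promoter 1 (chr7:114414565-114414864, + strand): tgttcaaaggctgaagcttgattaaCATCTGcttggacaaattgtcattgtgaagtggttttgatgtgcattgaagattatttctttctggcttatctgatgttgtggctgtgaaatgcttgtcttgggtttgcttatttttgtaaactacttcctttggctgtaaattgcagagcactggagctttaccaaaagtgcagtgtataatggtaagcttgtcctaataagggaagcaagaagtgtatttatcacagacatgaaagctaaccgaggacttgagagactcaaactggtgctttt
FOXP2 promoter 2 (chr7:114426252-114426551, + strand): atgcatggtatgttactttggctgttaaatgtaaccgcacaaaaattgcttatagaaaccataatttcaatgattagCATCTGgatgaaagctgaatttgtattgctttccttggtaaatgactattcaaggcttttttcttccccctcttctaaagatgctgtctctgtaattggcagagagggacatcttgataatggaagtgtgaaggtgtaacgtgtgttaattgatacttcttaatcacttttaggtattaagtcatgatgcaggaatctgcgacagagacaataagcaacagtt

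Levels are given as CPM, the count of a gene relative to library size, scaled by TMM over the 66 libraries, with the mean ± SD of 3 libraries. Total counts per library ran from 14142238 to 40204753. Whether replicate libraries came from separate cultures is not given, so the p-values measure only the spread between these libraries. Changes are log2 fold changes with their SE, and a gene is called where the adjusted p of edgeR's quasi-likelihood test is under 0.05. In bulk RNA, fewer cells of a type and less RNA per cell cannot be told apart. ISL1 and TBX20 had too few counts to be tested before the hMN groups, and TBX20 too few in the hMN groups as well, so 7 members were tested in the first 5 comparisons below and 8 in the other 7.

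**Figure D1:**
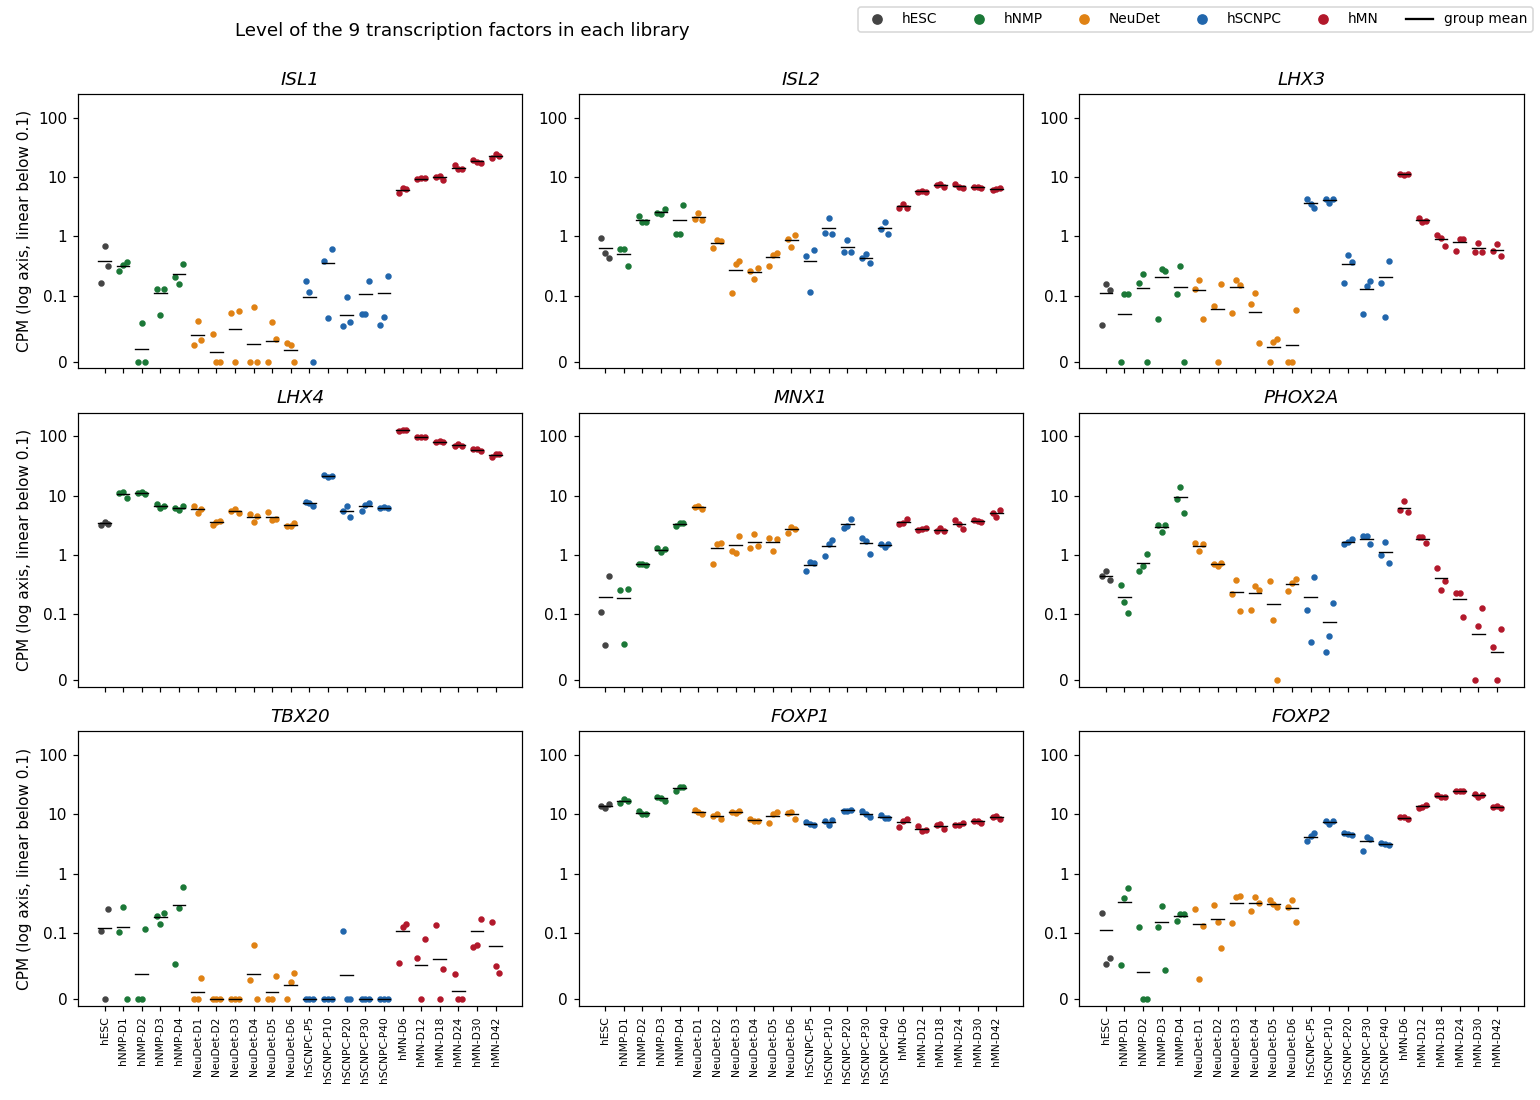
Level of each factor in each of the 66 libraries (points, CPM, log axis that is linear below 0.1), with group means as lines and stages as colours. ISL1 lies at or below 0.689 CPM in the 48 libraries before hMN and at or above 5.43 in the 18 hMN libraries, LHX4 falls from 126.6 to 48.6 CPM over the hMN groups, and TBX20 stays near 0.

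ISL1 (chromosome 5, 51383448 to 51394730, GRCh38), the LIM factor of postmitotic motor neurons, separated the hMN groups from the groups before them. In the 48 earlier libraries it lay between 0 and 0.689 CPM (median 0.069), with no count in 10 of them. In hSCNPC-P10 the 3 libraries held 0.389, 0.0666 and 0.622 CPM, and in hMN-D6 they held 5.43, 6.51 and 6.23. The groups did not overlap, and ISL1 rose by 3.93 ± 0.214 (log2 fold change ± SE, adjusted p = 2.35e-22, edgeR's quasi-likelihood test). It then rose to 9.34 ± 0.196 CPM at hMN-D12, was not called at hMN-D18 (9.82 ± 0.757, adjusted p = 0.765, edgeR), and rose at each later step to 14.3 ± 1.28, 18.2 ± 0.906 and 22.6 ± 1.54 CPM at hMN-D42. The 3 libraries of hMN-D42 (21.1, 24.2 and 22.4 CPM) all lay above those of hMN-D6, a gain of 1.90 ± 0.103 (adjusted p = 3.79e-22, edgeR). In the order of the 22 groups, hMN-D42, hMN-D30 and hMN-D24 each stood clear of the next, hMN-D18 overlapped hMN-D12, hMN-D6 came sixth, and the other 16 groups formed 1 chain of overlapping neighbours led by hESC (0.389 ± 0.27 CPM).

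ISL2 (chromosome 15, 76336773 to 76342475), the close relative of ISL1, was already present at a low level in early groups. An antisense gene shares 17.92% of its exon bases. Before hMN it was highest in hNMP-D3 (2.57 ± 0.257 CPM) and NeuDet-D1 (2.1 ± 0.305), and lowest in NeuDet-D4 (0.248 ± 0.0498). The hSCNPC-P10 libraries held 1.12, 2.0 and 1.09 CPM, and the hMN-D6 libraries 2.99, 3.55 and 3.04. ISL2 thus rose by 1.21 ± 0.177 at hMN-D6 (adjusted p = 3.71e-08, edgeR), with no overlap, and by a further 0.84 ± 0.138 at hMN-D12 (adjusted p = 1.11e-06, edgeR). Its highest mean was 7.21 ± 0.499 CPM at hMN-D18. That last step, 0.33 ± 0.123 with an adjusted p of 0.0488 in edgeR's test, lost its call without any of 5 of the 6 libraries compared (0.28 to 0.36, adjusted p 0.0805 to 0.172) and with the DESeq2 test. From hMN-D18 to hMN-D30 the neighbouring groups overlapped, and hMN-D42 held 6.29 ± 0.192 CPM. In hNMP-D4, 1 library stood apart (1.1, 1.11 and 3.4 CPM). The rise of ISL2 from hESC to hNMP-D4 (1.59 ± 0.365) was called with it and not without it (0.78, adjusted p = 0.0818 in edgeR's test), and the fall to NeuDet-D6 (-1.22 ± 0.318) likewise (-0.43, adjusted p = 0.284).

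MNX1 (chromosome 7, 156994051 to 157010663), the homeodomain factor of somatic motor neurons, was highest outside the hMN groups. Its level rose from 0.2 ± 0.208 CPM in hESC to 3.33 ± 0.244 in hNMP-D4, a change of 4.10 ± 0.395 (adjusted p = 4.61e-13, edgeR). The hESC libraries held 2, 1 and 7 counts, and without the last of these, hESC replicate 3, the change was 5.32. NeuDet-D1 had the highest mean of the 22 groups, with 6.49, 6.61 and 5.84 CPM in its libraries. With TMM scaling all 3 lay above the highest hMN library (5.65). The NeuDet-D1 mean was also the highest with RLE scaling (6.12 CPM) and with total counts (6.05). With total counts, however, the libraries of NeuDet-D1 and hMN-D42 overlapped. By NeuDet-D2 the level was 1.29 ± 0.493 CPM. In the progenitors MNX1 fell to 0.673 ± 0.122 CPM at passage 5 (-1.99 ± 0.308 against NeuDet-D6, adjusted p = 1.6e-07, edgeR). The hMN-D6 libraries held 3.38, 3.42 and 4.1 CPM against 0.951, 1.53 and 1.81 in hSCNPC-P10, and MNX1 rose by 1.33 ± 0.193 (adjusted p = 2.79e-08, edgeR). Against hSCNPC-P20, whose libraries held 2.82, 3.13 and 3.96 CPM, the change was 0.12 (adjusted p = 0.487, edgeR), so the call depended on the passage taken as reference. Over the hMN groups the mean lay between 2.67 ± 0.183 CPM at hMN-D18 and 5.01 ± 0.673 at hMN-D42. The gain from hMN-D6 to hMN-D42 was 0.48 ± 0.156 (adjusted p = 0.00628, edgeR), and was not called without hMN-D42 replicate 3, the library at 5.65 CPM (0.38, adjusted p = 0.0622).

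LHX3 (chromosome 9, 136196250 to 136205128), which with ISL1 and LDB1 drives the motor neuron programme and without ISL1 that of V2a interneurons, was high in few groups. From hESC to NeuDet-D6 no library passed 0.318 CPM. The hSCNPC-P5 libraries held 4.32, 3.51 and 2.95 CPM and those of hSCNPC-P10 4.24, 3.66 and 4.25, against 0, 0 and 0.0781 in NeuDet-D6. With 190 counts in hSCNPC-P5 and 2 in NeuDet-D6, the ratio of the pooled levels was 178.0 (95% exact counting interval 48.6 to 1480.5). At passage 20 the libraries held 0.163, 0.49 and 0.365 CPM, a fall of 3.52 ± 0.428 on the log2 scale (adjusted p = 1.61e-09, edgeR), and LHX3 stayed between 0.0672 and 0.39 CPM in passages 30 and 40. In hMN-D6 it reached 11.3, 10.9 and 11.2 CPM, above every other library, with a rise of 1.41 ± 0.145 over hSCNPC-P10 (adjusted p = 2.3e-12, edgeR). It then fell by 2.56 ± 0.161 at hMN-D12 (1.88 ± 0.165 CPM, adjusted p = 4.7e-19, edgeR) and changed by -1.07 ± 0.219 at hMN-D18 (0.894 ± 0.186, adjusted p = 0.000188, edgeR). The 4 groups from hMN-D18 to hMN-D42 overlapped their neighbours in the order, and hMN-D42 held 0.557, 0.742 and 0.467 CPM, which is -4.24 ± 0.192 against hMN-D6.

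LHX4 (chromosome 1, 180230264 to 180278984), the relative of LHX3 that acts with it in newborn motor neurons, was highest in hMN-D6 and fell at each later step. It was present throughout, with 3.21 ± 0.264 CPM in NeuDet-D6 at the lowest and 11.1 ± 0.589 in hNMP-D2. The hSCNPC-P10 libraries held 22.3, 20.7 and 21.6 CPM, above the other passages (4.44 to 7.81), and LHX4 was lower at passage 20 by 1.93 on the log2 scale (SE 0.128, adjusted p = 1.78e-18, edgeR). In hMN-D6 the libraries held 124.1, 127.8 and 127.8 CPM, a rise of 2.51 ± 0.0526 (adjusted p = 1.08e-39, edgeR). Each later group lay below the one before it with no overlap, at 96.0 ± 0.553, 80.7 ± 3.17, 70.0 ± 2.76, 59.6 ± 2.73 and 48.6 ± 2.65 CPM. LHX4 was called lower at each of these 5 steps (-0.38, -0.26, -0.22, -0.21 and -0.29), and by -1.37 ± 0.0465 from hMN-D6 to hMN-D42 (adjusted p = 2.18e-30, edgeR). The annotation places 30.67% of its exon bases over exons of ACBD6 on the other strand, and the strand setting of the counting is not stated. ACBD6, looked up after the values of LHX4 were seen, held 65.9 ± 2.97 CPM in hSCNPC-P10 and 62.4 ± 1.38 in hMN-D6, with overlapping libraries, and 47.4 ± 1.43 in hMN-D42.

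V2a interneurons also make LHX3 and LHX4, and SOX14, a transcription factor of V2a cells, was followed beside them. SOX14 rose from 4.17 ± 0.327 CPM in hSCNPC-P10 to 50.6 ± 1.21 in hMN-D6 (3.55 ± 0.0766, adjusted p = 3.83e-39, edgeR) and fell to 28.6 ± 0.781 in hMN-D42 (-0.81 ± 0.0538). At passage 20, where LHX3 and LHX4 fell, SOX14 had no count. Over the list of 10 V2 interneuron genes, 3 were higher and 7 lower in hMN-D6 than in hSCNPC-P10, beside 75.2% of all genes called. The summed level ran from 262.8 to 276.6 CPM in hSCNPC-P10, from 304.4 to 316.8 in hMN-D6 and from 134.9 to 137.9 in hMN-D42. The sum was thus higher in hMN-D6 than in hSCNPC-P10, although more genes of the list fell than rose. No gene of the list was at 0 in these groups. VSX1, TAL1 and FOXN4, genes of V2 precursors and V2b cells, fell most (-3.82, -3.79 and -3.30). From hMN-D6 to hMN-D42, 3 genes of the list rose (GATA3 by 6.86, GATA2 by 4.13 and SHOX2 by 0.69) and 6 fell. Of all genes, 65.9% were called between these days. Which share of the LHX3 and LHX4 transcripts came from V2a cells was not tested, and in bulk RNA it cannot be told apart from that of motor neurons.

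**Figure D2:**
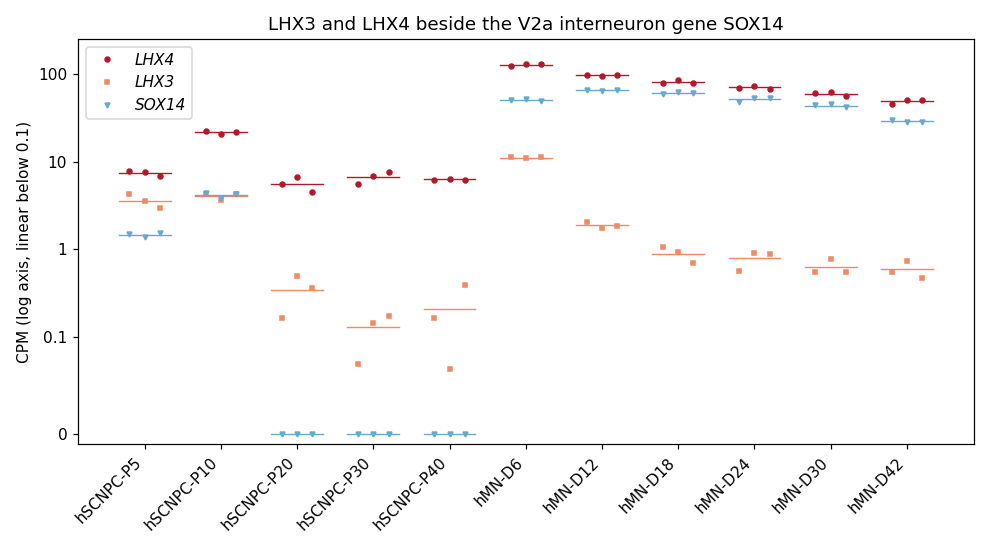
LHX3 and LHX4 with the V2a interneuron gene SOX14 in each hSCNPC and hMN library (points, CPM, log axis that is linear below 0.1; lines are group means). All 3 genes are higher in hMN-D6 than in each passage, and LHX3 drops from 11.1 to 1.88 CPM between hMN-D6 and hMN-D12 while SOX14 holds 50.6 and 64.5.

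FOXP1 (chromosome 3, 70954693 to 71583978), whose high level marks limb and preganglionic motor columns, was not called on entry into the hMN groups. It was highest in hNMP-D4, with 24.6, 29.3 and 28.3 CPM, above every library of the other groups, and hMN-D12 held the lowest mean (5.68 ± 0.597). FOXP1 rose by 0.98 ± 0.109 from hESC to hNMP-D4 (adjusted p = 3.85e-11, edgeR) and fell by 1.51 ± 0.107 to NeuDet-D6 (adjusted p = 3.51e-18, edgeR). The hMN-D6 libraries (6.15, 7.78 and 8.3 CPM) overlapped those of hSCNPC-P10 (7.69, 6.66 and 7.98), with a change of -0.05 ± 0.116 (adjusted p = 0.72, edgeR). Against passages 20, 30 and 40, hMN-D6 was lower (-0.66, -0.48 and -0.30), and against passage 5 the value was 0.07. Within the hMN groups, FOXP1 fell by 0.38 on the log2 scale from hMN-D6 to hMN-D12 (SE 0.12, adjusted p = 0.00683, edgeR), although the libraries of the pair overlapped, and this call was lost without hMN-D6 replicate 3 (-0.30, adjusted p = 0.063). At hMN-D42 the libraries held 9.12, 9.45 and 8.37 CPM. That is 0.28 ± 0.112 above hMN-D6 (adjusted p = 0.0255, edgeR), a call that was lost without hMN-D6 replicate 1, hMN-D42 replicate 1 or hMN-D42 replicate 2 (0.17 to 0.26, adjusted p 0.0707 to 0.225) and with DESeq2.

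FOXP2 (chromosome 7, 114086327 to 114693772) came on in the expanded progenitors and peaked in the middle of the hMN course. From hESC to NeuDet-D6 it lay between 0 and 0.581 CPM. In hSCNPC-P5 the libraries held 3.55, 4.32 and 4.75 CPM, a rise of 3.91 ± 0.338 over NeuDet-D6 (adjusted p = 6.72e-15, edgeR). The level was 7.46 ± 0.633 CPM at passage 10 and 3.15 ± 0.109 at passage 40. Its fall from passage 10 to 20 (-0.65 ± 0.247, adjusted p = 0.0462, edgeR) was lost on leaving out any of 5 of the 6 libraries (-0.62 to -0.71, adjusted p 0.0662 to 0.125). In hMN-D6 the libraries held 9.02, 9.13 and 8.26 CPM, all above hSCNPC-P10, but the change of 0.19 ± 0.0936 was not called (adjusted p = 0.0638, edgeR). It was called with a filter of 1 CPM, in a fit of these groups alone and without hMN-D6 replicate 3 (0.24, 0.25 and 0.24). Against passages 5, 20, 30 and 40 it was called, at 1.02, 0.88, 1.30 and 1.46. FOXP2 then rose at the next 3 steps by 0.65 ± 0.0849, 0.55 ± 0.0758 and 0.28 ± 0.0692, to 24.4, 25.1 and 24.8 CPM in the libraries of hMN-D24, above every other group. It fell by 0.23 on the log2 scale to hMN-D30 (SE 0.0684, adjusted p = 0.019, edgeR; lost without hMN-D24 replicate 2 or hMN-D30 replicate 2) and by 0.63 to hMN-D42 (SE 0.0742, adjusted p = 9.22e-10, edgeR), where the mean was 13.5 ± 0.457 CPM.

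PHOX2A (chromosome 11, 72239077 to 72245664), the homeodomain factor of visceral and oculomotor neurons, was highest in hNMP-D4 and in hMN-D6, whose libraries overlapped. The hNMP-D4 libraries varied widely, at 8.93, 14.1 and 5.13 CPM, all above hESC (0.44, 0.53 and 0.375), and PHOX2A rose by 4.36 ± 0.377 (adjusted p = 3.05e-14, edgeR). It fell by 4.89 ± 0.359 on the log2 scale to NeuDet-D6 (0.327 ± 0.0707 CPM, adjusted p = 4.76e-17, edgeR). In the progenitors it was scarce at passage 10 (0.0432, 0.0666 and 0.156 CPM, 5 counts in all) and present at passage 20 (1.52, 1.66 and 1.83), a rise of 4.20 ± 0.588 (adjusted p = 9.64e-08, edgeR) while LHX3 and LHX4 fell. The hMN-D6 libraries held 5.65, 7.99 and 5.21 CPM, 6.05 ± 0.379 above hSCNPC-P10 (adjusted p = 6.19e-20, edgeR). Passage 10 had the lowest PHOX2A mean of the passages (0.0884 CPM). Passages 5, 20, 30 and 40 held 0.199, 1.67, 1.89 and 1.14 CPM, so the size of this rise depends on the passage taken as reference. Without hSCNPC-P10 replicate 3, the changes from passage 10 to passage 20 and to hMN-D6 were 4.84 and 6.73. The level then fell to 1.87 ± 0.231 CPM at hMN-D12 (-1.74 ± 0.221) and 0.407 ± 0.176 at hMN-D18 (-2.20 ± 0.322). At hMN-D42 the libraries held 1, 0 and 2 counts. The ratio of hMN-D6 to hMN-D42 was 139.8, with a 95% exact counting interval of 47.5 to 680.7.

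TBX20 (chromosome 7, 35202430 to 35254100), the T-box factor of branchial motor neurons and heart, was close to the detection limit in every group. It had 83 counts over the 66 libraries and no count in 34 of them. The highest group was hNMP-D4, with 0.0525, 0.265 and 0.588 CPM. No count was seen in 6 groups, among them hSCNPC-P5, P10, P30 and P40, and a count of 0 allows up to 3 counts over a group of 3 libraries. The hMN groups held between 0.0125 ± 0.0217 and 0.11 ± 0.0523 CPM, and all 21 pairs of neighbours in the order of the 22 groups overlapped. Of 8 genes of heart and lateral mesoderm, 6 had no count in hMN-D6, among them GATA4, HAND2 and TNNT2, and NKX2-5 held 0.0748 CPM there.

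**Figure D3:**
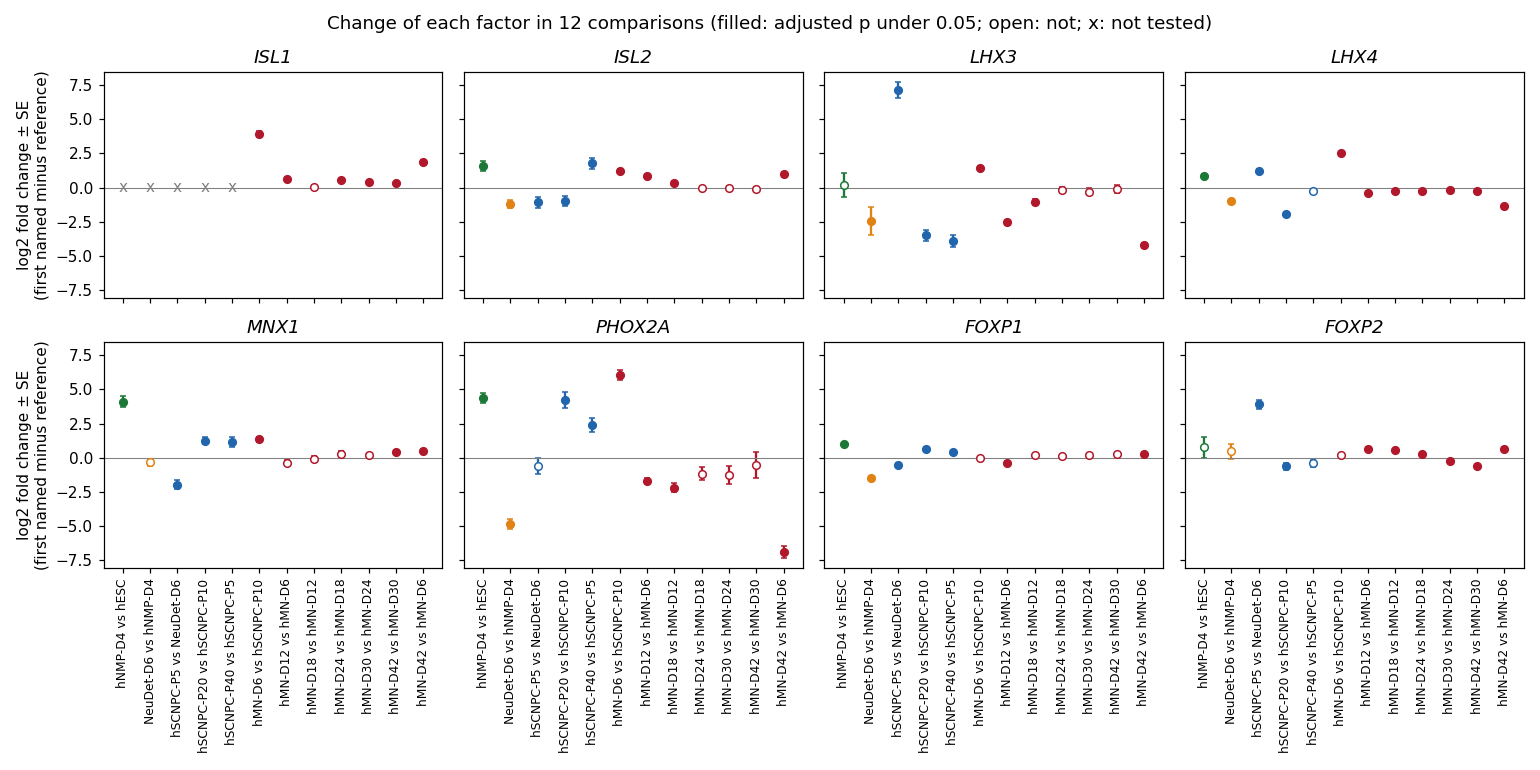
log2 fold change ± SE of the 8 tested factors in the 12 comparisons (the first group named minus the reference, coloured by the stage of the first group). Filled points have an adjusted p under 0.05 in edgeR's quasi-likelihood test, open points do not, and a grey x marks a gene not tested; LHX3 is lowest in hMN-D42 against hMN-D6 (-4.24) and LHX4 is above 0 only where hNMP-D4, hSCNPC-P5 or hMN-D6 is named first.

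From hESC to hNMP-D4, 5 of 7 tested members rose (ISL2, LHX4, MNX1, PHOX2A and FOXP1) and 0 fell, while 54.3% of all genes tested were called in either direction. From hNMP-D4 to NeuDet-D6, 0 rose and 5 fell (ISL2, LHX3, LHX4, PHOX2A and FOXP1), beside 65.1% of genes called. The fall of LHX3 there rested on 8 and 2 counts, its libraries overlapped, and the call was lost without NeuDet-D6 replicate 1, NeuDet-D6 replicate 2 or hNMP-D4 replicate 2 (-1.04 to -1.86, adjusted p 0.137 to 0.536 in edgeR's test), while the value was -4.65 without NeuDet-D6 replicate 3. In hSCNPC-P5 against NeuDet-D6, LHX3, LHX4 and FOXP2 rose and ISL2, MNX1 and FOXP1 fell, beside 59.4% of genes called. That ISL2 call (-1.09, adjusted p = 0.0231, edgeR) was lost without NeuDet-D6 replicate 3 or hSCNPC-P5 replicate 2 (-0.97 and -0.70). These comparisons share groups, so their values are not independent of one another.

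At passage 20 against passage 10, MNX1, PHOX2A and FOXP1 rose (1.24, 4.20 and 0.65) and LHX3, LHX4, ISL2 and FOXP2 fell (-3.52, -1.93, -1.01 and -0.65), so that 7 of 7 tested members were called beside 25.5% of all genes. The ISL2 call was lost with DESeq2 (adjusted p = 0.0556) and without any of hSCNPC-P10 replicate 2, hSCNPC-P20 replicate 1 or hSCNPC-P20 replicate 3. Passage 40 against passage 5 gave 4 higher (ISL2, MNX1, PHOX2A and FOXP1), 1 lower (LHX3) and 2 not called, beside 46.9% of genes called. The FOXP1 call there (0.39) was lost without hSCNPC-P40 replicate 1, hSCNPC-P5 replicate 2 or hSCNPC-P5 replicate 3 (0.30 to 0.34). Of 9 motor neuron progenitor factors, 2 were higher and 6 lower at passage 20 than at passage 10, and at passage 40 against passage 5 none was higher and 7 were lower.

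On entry into hMN, 6 of 8 tested members rose (ISL1, ISL2, LHX3, LHX4, MNX1 and PHOX2A), 0 fell, and FOXP1 and FOXP2 were not called. Of all genes, 75.2% were called in either direction in the same comparison, so the share of members called was close to that of all genes. The median change was 0.08 for all genes and 1.37 for the members. As the members were chosen by name with earlier results known, this difference is no test. This comparison crosses the 2 deposited tables, so that stage and table cannot be told apart. The later steps lie within 1 table. From hMN-D6 to hMN-D12, ISL1, ISL2 and FOXP2 rose and LHX3, LHX4, PHOX2A and FOXP1 fell, beside 46.6% of genes called, and at hMN-D18 ISL2 and FOXP2 rose and LHX3, LHX4 and PHOX2A fell, beside 21.9%. From hMN-D18 to hMN-D24, ISL1 and FOXP2 rose and LHX4 fell, beside 27.0% of genes. At hMN-D30, ISL1 rose and LHX4 and FOXP2 fell, beside 11.9%, and at hMN-D42, ISL1 and MNX1 rose and LHX4 and FOXP2 fell, beside 41.7%. The last MNX1 step (0.43 ± 0.152, adjusted p = 0.0202, edgeR) was lost without any of 4 of the 6 libraries (0.32 to 0.42) and with DESeq2. Over the whole hMN course, from day 6 to day 42, ISL1, ISL2, MNX1, FOXP1 and FOXP2 rose and LHX3, LHX4 and PHOX2A fell, so that 8 of 8 were called beside 65.9% of genes.

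The members could be compared with one another per exon length, taken as the full annotated length. Of the exon bases of LHX4, 30.67% are shared with a gene on the other strand, and of those of ISL2, 17.92%. As the strand setting is not stated, the levels per kilobase of these 2 genes, and the shares that use them, may be off. In hMN-D6, LHX4 held 20.8 ± 0.356 CPM per exon kilobase, PHOX2A 3.52 ± 0.836, LHX3 2.9 ± 0.0458, ISL1 2.15 ± 0.199 and ISL2 1.47 ± 0.143. In hMN-D42, ISL1 (8.02 ± 0.547) and LHX4 (7.98 ± 0.436) were level within their spread on these full lengths. They were ahead of ISL2 (2.9 ± 0.0886) and MNX1 (1.19 ± 0.16), while LHX3 held 0.153 ± 0.0365. FOXP2 and FOXP1 have long annotated exons (16.5 and 32.8 kilobases), and in hMN-D42 they held 0.815 ± 0.0276 and 0.274 ± 0.0169 CPM per exon kilobase. Of the summed ISL1 and ISL2 level per kilobase, ISL1 took 59.4% ± 1.61 in hMN-D6, 51.2% ± 0.543 in hMN-D18 and 73.4% ± 1.32 in hMN-D42, with no overlap between these groups. LHX3 took 43.2% ± 3.09 of the LHX3 and LHX4 level in hSCNPC-P5, 22.9% ± 0.967 in hSCNPC-P10, 12.2% ± 0.338 in hMN-D6 and 1.89% ± 0.426 in hMN-D42. FOXP2 took 66.5% ± 0.432 of the FOXP1 and FOXP2 level in hSCNPC-P10, 87.8% ± 0.389 in hMN-D24 and 74.9% ± 0.599 in hMN-D42. Before division by exon length, FOXP2 and FOXP1 held 7.46 and 7.45 CPM in hSCNPC-P10, so the larger share of FOXP2 there rests on the annotated lengths.

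**Figure D4:**
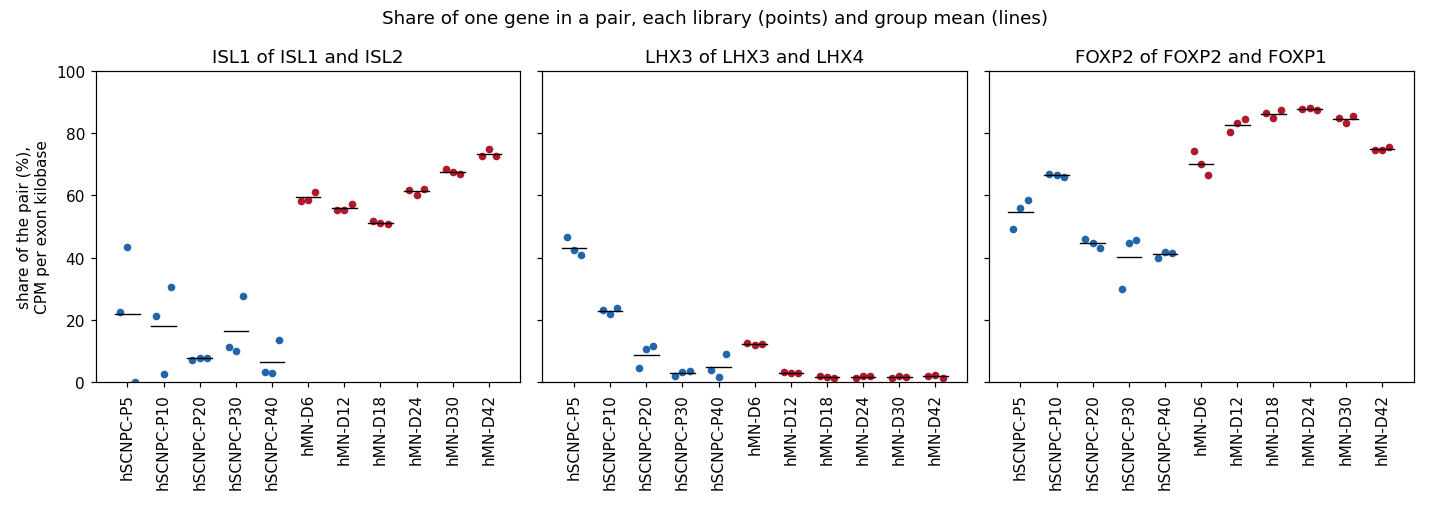
Share of ISL1 in ISL1 plus ISL2, of LHX3 in LHX3 plus LHX4 and of FOXP2 in FOXP2 plus FOXP1 (percent of CPM per exon kilobase), for each hSCNPC and hMN library (points) with group means (lines). ISL1 ends at 73.4%, LHX3 at 1.89% and FOXP2 at 74.9% in hMN-D42; the ISL1 shares in the hSCNPC groups rest on 24 to 99 summed counts per group.

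Genes of the same pathway were looked at beside the members. Of all genes, 75.2% were called in hMN-D6 against hSCNPC-P10 and 65.9% in hMN-D42 against hMN-D6. Of 11 motor neuron effector genes, 10 rose from hSCNPC-P10 to hMN-D6 and 1 fell (CHODL, -0.97). The largest rises were of the acetylcholine genes SLC5A7, the choline transporter (5.83), SLC18A3, which loads the vesicles (4.01, to 20.2 ± 0.465 CPM), and CHAT, the synthesizing enzyme (3.34, to 1.51 ± 0.246 CPM). From hMN-D6 to hMN-D42, beside the gain of ISL1, 6 of these genes rose and 4 fell: CHAT gained 1.27, SLC18A3 0.71, RET, the receptor of GDNF, 1.52 and ACHE, which breaks down acetylcholine, 1.89, while CHRNA3, SLIT2 and SLIT3 fell (-1.52, -0.75 and -0.33). All 12 pan-neuronal genes rose at hMN-D6, and their summed level ran from 13324.0 to 13490.3 CPM against 2102.7 to 2147.0 in hSCNPC-P10. Of 9 motor neuron progenitor factors, OLIG1, OLIG2 and NKX6-1 rose (2.17, 1.00 and 0.30) and 5 fell at hMN-D6, led by PAX6, NKX2-2 and SOX1 (-3.64, -2.34 and -2.18). OLIG2, which defines motor neuron progenitors, stayed low, at 1.73 CPM in hSCNPC-P10 and 3.56 in hMN-D6.

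Partners and column genes moved in both directions beside the members. Their counts stand beside 75.2% of all genes called at hMN-D6 and 65.9% from hMN-D6 to hMN-D42. Of 13 partners and regulators, 6 rose at hMN-D6 (ONECUT2 by 3.68, ONECUT1 by 3.21 and EBF1 by 2.76 the most) and 5 fell (LMO1, NEUROD4 and LDB2 the most, -1.35, -1.10 and -0.81). ONECUT1 activates ISL1 in motor neurons. From hMN-D6 to hMN-D42, 4 of the 13 rose (LMO1, LDB2 and LMO4 the most, by 2.16, 1.93 and 1.01) and 9 fell, among them NEUROD1, EBF2 and NEUROD4 (-4.01, -3.69 and -3.63). Of 12 column and pool genes, 11 were tested. At hMN-D6, 8 rose, with ETV4, RUNX1 and ESRRG the most (5.63, 3.44 and 3.31), and 3 fell, namely ZEB2, MECOM and ETV1 (-2.50, -2.27 and -0.87). From hMN-D6 to hMN-D42, 6 rose, led by NOS1, a gene of preganglionic neurons (3.23), and ALDH1A2, the retinoid enzyme of limb motor neurons (2.22), and 5 fell, led by ESRRG, TSHZ1 and POU3F1 (-2.88, -2.02 and -1.69). LHX1, the factor of lateral limb motor neurons, held 0.116 CPM in hMN-D6 and 0.0295 in hMN-D42 and was not tested. Of 8 visceral and cranial genes, 3 rose (TBX3, TBX2 and TBX1, by 2.65, 1.84 and 1.08) and 4 fell at hMN-D6 (HOXB1, NKX2-8 and GATA3 the most, -4.67, -4.63 and -3), beside the rise of PHOX2A. The list shares GATA2 and GATA3 with the V2 list.

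Markers of other cell types changed as well, and their part in the members' changes was not tested. Of all genes, 75.2% were called in hMN-D6 against hSCNPC-P10 and 65.9% in hMN-D42 against hMN-D6. ISL1 is also a gene of dI3 interneurons and sensory neurons. Of 9 genes of those cells, 5 of 8 tested rose and 2 fell at hMN-D6. POU4F2 and RUNX3 rose most (6.07 and 3.35), the sensory factor POU4F1 held 3.52 CPM and TLX3, a dorsal factor, 0.448. The summed level of the 9 genes ran from 32.8 to 38.4 CPM in hSCNPC-P10, from 92.3 to 109.6 in hMN-D6, from 163.5 to 187.1 in hMN-D18 and from 171.7 to 182.1 in hMN-D24. In hMN-D6, POU4F1 and TLX3 were a small part of this sum, so most of it came from other genes of the list. The ranges of hMN-D18 and hMN-D24 overlapped (means of 176.3 and 175.9 CPM). The sum then ran from 149.8 to 159.4 CPM in hMN-D30 and from 105.7 to 106.4 in hMN-D42. From hMN-D6 to hMN-D42, 2 of the 8 tested genes rose and 3 fell. For V1 and V0 interneurons, 4 of 9 tested genes rose and 4 fell at hMN-D6, EN1, the V1 factor, held 1.19 CPM and EVX1, the V0 factor, 1.06, and the summed level ran from 166.4 to 170.1 CPM in hMN-D6 and from 114.2 to 119.1 in hMN-D42. Between these days 5 of the 9 rose, with EN1 at 5.13 CPM in hMN-D42, and 4 fell. For V3 interneurons, 2 of 3 tested genes rose and 1 fell, SIM1 held 0.316 CPM, and the summed level ran from 17.2 to 19.4 CPM in hMN-D6 and from 11.8 to 14.1 in hMN-D42. From hMN-D6 to hMN-D42, 2 of the 3 rose (SLC17A6 by 3.09 and NKX2-2 by 2.82) and 1 fell (UNCX, -3.73). Of 8 glial genes, 3 rose and 1 fell at hMN-D6. All 8 rose from hMN-D6 to hMN-D42. The summed glial level ran from 223.4 to 241.5 CPM in hSCNPC-P10, from 15.0 to 17.2 in hMN-D6 and from 125.4 to 135.8 in hMN-D42. In hSCNPC-P10, GFAP, AQP4 and ALDH1L1 held only 0.163, 0.131 and 0.307 CPM, so that sum came from other genes of the list. In hMN-D6 these 3 genes held 0.176, 0.107 and 0.211 CPM, and in hMN-D42 8.71, 2.62 and 0.595. Heart and mesoderm genes summed to 2.66 to 2.92 CPM in hMN-D6 and to 13.1 to 17.4 in hMN-D42, where 0 of the 8 were without a count. With 6 of the 8 at 0 and NKX2-5 scarce, the hMN-D6 sum was almost all MEF2C. In hMN-D42, GATA4, GATA6, HAND1 and HAND2 held 0.026, 0.0299, 0.322 and 1.63 CPM, so most of that sum came from other genes of the list. Of 10 other LIM homeobox and FOXP genes, 6 were tested at hMN-D6, of which 3 rose, led by LMX1B (3.17), and 1 fell, FOXP4 (-1.46).

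The genes whose profile over the 22 groups was most like each member's were sought among 13118 protein-coding genes with a group mean of at least 5 CPM, by Pearson's correlation of log2(CPM + 1), as a description with no test. The groups form 1 developmental course, so that many genes share it. For ISL1 they were GPR83 (r = 0.992), PDIA2 (0.988) and ADGRA1 (0.987). LHX4 was closest to SOX14 (0.972) and B3GAT2 (0.969), and LHX3 to LDB3 (0.963), EBF2 (0.952) and SPON2 (0.938). The profile of ISL2 was nearest to that of ATXN1 (0.973), and BTBD10 (0.952) was also close. For FOXP2, STMN4 came first (0.989), followed by SCN3A (0.986) and CCDC184 (0.983). FOXP1 had ZNF765 (0.9), RNF168 (0.885) and ZNF761 (0.884). Values for MNX1 were lower, with SLC35F6 (0.826), UBL3 (0.797) and RHOB (0.790), and for PHOX2A lower still, with MYO6 (0.718), FAM221A (0.700) and SASH1 (0.699). TBX20 did not reach 5 CPM in any group and was not searched.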

How the data were processed

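Bulk RNA was sequenced from 66 libraries of H9 cells, 3 in each of 22 groups, which were assigned from the labels. The authors deposited raw counts per gene in 2 tables of 48 and 18 libraries. Per the labels and the study's methods, reads were aligned with HISAT2 2.1.0 and counted with featureCounts 1.5.3 after fastp trimming; the strand setting is not given in the sources used here. The files hold 60603 gene identifiers, of which 99.44% matched a GENCODE 44 symbol. Totals per library ran from 14142238 to 40204753 counts (median 20676228), which sets a limit for genes of few counts; intervals and limits cover counting error only.

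From these counts, CPM scaled by TMM and edgeR's quasi-likelihood test were computed (edgeR 4.0.16, limma 3.58.1, R 4.3.3, Python 3.11.15), with filterByExpr and Benjamini-Hochberg adjustment over all genes tested at 0.05. The first 5 comparisons came from 1 fit of 48 libraries (21597 genes) and the other 7 from 1 fit of 21 libraries (21175 genes). Scripts were tested on simulated data. Of 66 pairs of libraries within groups, 0 were identical.

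The members and gene lists were chosen with earlier results of these data known. From each list, up to 3 called genes per direction with the largest change were named, with the genes that define its cell type and those without a count. Alternatives were DESeq2 1.42.0, RLE scaling, other filters, the compared groups alone, other passages as progenitors, a replicate block and leaving out each replicate. Protein sequences were not used here. Some genes that this rule would name are not reported here.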

Additional observations from a re-analysis of the deposited data

How the results depend on the processing

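Of 91 results for single members, 64 were called, and 1116 values were computed under the alternatives. Of these, 1050 kept their direction and their side of the threshold, 42 lost a call, 13 gained one and 11 changed sign; 0 of the results that changed sign had been called. The number of members called stayed within 1.5 times under every alternative run. RLE scaling changed no call or direction among its 91 results, DESeq2 lost 4 calls and no filter on low counts lost 2. Leaving out 1 replicate lost 34 calls among 546 values, which include values of results not called at first. Levels did shift with the scaling, although the highest group of each member stayed the same. In that group LHX4 went from 126.6 to 131.9 CPM with RLE scaling and ISL1 from 22.6 to 27.0 with total counts, each beyond its SD. MNX1 and FOXP1 stayed within theirs. The changes of sign were small or rested on few counts, and their cause was not tested. For LHX3 from hESC to hNMP-D4 the value was -0.08 without hESC replicate 1 and -1.13 without hNMP-D4 replicate 2. For FOXP1 in hMN-D6 against the progenitors it was 0.00 with at least 1 CPM in every library of a group, 0.01 with the groups alone, 0.07 against hSCNPC-P5 and 0.06 without hMN-D6 replicate 1. For LHX3 it was 0.00 at hMN-D24 without hMN-D24 replicate 1, and at hMN-D42 against hMN-D30 0.08 without hMN-D30 replicate 2 and 0.05 without hMN-D42 replicate 3. For ISL2 at hMN-D30 it was 0.02 without hMN-D24 replicate 1, and for PHOX2A at hMN-D42 against hMN-D30 0.17 without hMN-D30 replicate 3. Over all values with 1 replicate left out, LHX3 from hESC to hNMP-D4 ran from -1.13 to 0.86, FOXP1 at hMN-D6 from -0.13 to 0.06, LHX3 at hMN-D24 from -0.34 to 0.00 and at hMN-D42 against hMN-D30 from -0.30 to 0.08, ISL2 at hMN-D30 from -0.10 to 0.02, and PHOX2A at hMN-D42 against hMN-D30 from -1.26 to 0.17.

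Replicate numbers did not pair the libraries: deviations of libraries with the same number correlated between -0.04 and 0.05, and in 2 of the 12 comparisons each library correlated best with its own number. With the replicate block, 90 of 91 results kept their call and ISL2 at hMN-D18 lost it (0.33, adjusted p = 0.0516, edgeR). The most alike genes depended on the measure: with Spearman's correlation, 0 of 3 were shared for ISL1, LHX3, LHX4, FOXP1 and FOXP2.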
